A study of Mus musculus with 12 samples.

Results

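Rab GTPases are small switch proteins that mark the membranes of the secretory and endocytic routes and recruit the motors, tethers and fusion factors that move cargo between them. DENN-domain proteins load a Rab with GTP and so act as its guanine nucleotide exchange factors (GEFs). Most TBC-domain proteins act as GTPase-activating proteins (GAPs), which return a Rab to its GDP-bound state. In epithelia these routes carry junction proteins such as E-cadherin to and from the cell surface. Zeb1, the transcription factor varied in this study, is best known as a repressor of epithelial genes in epithelial-mesenchymal transition.

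The genes described here are the Rab, Tbc1d and Dennd genes of the deposited count table, taken by gene name with earlier results of these data known. They number 86 of 12208 listed genes, made up of 47 Rab, 26 Tbc1d and 13 Dennd genes, and 2 further genes with matching names are not analysed here. Of the 86, 85 passed the filter on low counts. Dennd2a did not, and averaged 0.10 to 0.22 CPM (counts per M counts) in the 4 lines. Every listed gene has at least 1 count in every library, so a Rab, Tbc1d or Dennd gene that had 0 counts in any library is not covered.

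The samples are 4 lines made from the mouse lung cancer cell line 393P, which the labels call epithelial and non-metastatic. These are Zeb1_mimetic, Zeb1_deficient, Zeb1_WT and GFP_Vector, untreated and grown in RPMI with 10% serum, with 3 libraries each. The series title places the mimetic and deficient forms in a study of Zeb1 acetylation at lysine 811. The mutations were not checked here, and each Zeb1 form is represented by 1 line, so the Zeb1 form and other differences between lines cannot be told apart. The labels number the libraries as biological replicates, while the design text speaks of 2 replicates, and n = 3 is used throughout. Nothing more says how separate the cultures were, so p-values measure the spread between these libraries, which may be technical.

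Library totals ran from 24.4 to 27.5 M counts in mimetic, 31 to 33 in deficient, 28.4 to 35.8 in WT and 33.3 to 39 in vector libraries. Zeb1 itself averaged 228 ± 12.2 CPM in mimetic, 484 ± 13.1 in deficient, 244 ± 6.87 in WT and 31.3 ± 2.79 in vector libraries (SD, n = 3 each). Epithelial markers, of which 6 of 8 are in the table, summed to 5626 to 5797 CPM in mimetic, 7832 to 7957 in deficient, 4170 to 4324 in WT and 9169 to 10580 in vector libraries. Against vector, all 6 fell in mimetic and in WT cells, while 1 rose and 5 fell in deficient cells. Mesenchymal markers, of which 7 of 7 are in the table, summed to 5989 to 6199 CPM in mimetic, 5093 to 5331 in deficient, 6879 to 7189 in WT and 5919 to 6487 in vector libraries. Of these 7, 5 rose and 2 fell in mimetic, 5 rose and 2 fell in deficient, and 7 rose in WT cells against vector. The share of counts from mitochondrial genes was 0.482% to 0.504% in mimetic, 0.698% to 0.722% in deficient, 0.396% to 0.426% in WT and 0.814% to 0.998% in vector libraries. The summed levels of the listed blood markers (1 of 6 in the table), endothelial markers (2 of 5) and fibroblast markers (2 of 6) were at most 8.43, 7.16 and 2.66 CPM in any library. The part of these shifts in the results below was not tested. Deficient replicate 3 and vector replicate 3 stood apart from their lines: the mean chi-square per gene was 17.1 and 23.6 for pairs with the first, against 5.25 for the other deficient pair, and 13.7 and 21.2 for pairs with the second, against 6.23. In such bulk libraries, fewer cells of a type and less RNA per cell cannot be told apart.

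Against vector, more Rab, Tbc1d and Dennd genes were lower than higher in each Zeb1 line. With the TMM scaling of the main results, the same held for all tested genes. The shares of the family lower were 43.5% in mimetic, 41.2% in deficient and 37.6% in WT cells, and the shares higher 24.7%, 22.4% and 31.8%. In the mimetic line 21 rose and 37 fell among the 85 tested, or 68.2%, against 59.5% of the 12027 genes tested overall (28.6% higher and 30.9% lower). In the deficient line 19 rose and 35 fell, or 63.5% against 58.2% overall (28.4% higher and 29.8% lower). In the WT line 27 rose and 32 fell, or 69.4% against 64.6% overall (31% higher and 33.6% lower). A gene was called at an adjusted p under 0.05 in edgeR's quasi-likelihood test, and only such calls are described as rising or falling. Without deficient replicate 3, 19 rose and 32 fell in the deficient line. Without vector replicate 3, 18 rose and 38 fell in mimetic, 21 rose and 30 fell in deficient, and 26 rose and 31 fell in WT cells. Scaling by library size alone changed the mimetic split to 26 higher and 30 lower, the deficient split to 22 and 30, and the WT split to 28 and 30. More of all tested genes were then higher than lower. They numbered 4334 higher and 3004 lower in mimetic, 3928 and 3149 in deficient, and 3892 and 3873 in WT cells. The 3 comparisons share their vector libraries, so a gene that is high or low there moves all of them. The median size of the log2 fold change was 0.27 for the family and 0.28 for all tested genes in mimetic, 0.29 and 0.27 in deficient, and 0.31 and 0.32 in WT.

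Falls of at least 2-fold were made by 6 of the 85 genes in mimetic, 6 in deficient and 11 in WT cells. That is 12.9% in WT, against 7.51% of all tested genes. The corresponding shares of all tested genes were 3.89% in mimetic and 2.98% in deficient cells. Rises of at least 2-fold numbered 2, 2 and 3, while 5.47%, 5.56% and 4.85% of all tested genes rose that far. In the 4-line test of any difference, 71 of the 85 genes were called (83.5%, against 80.9% of all tested genes).

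**Figure D1:**
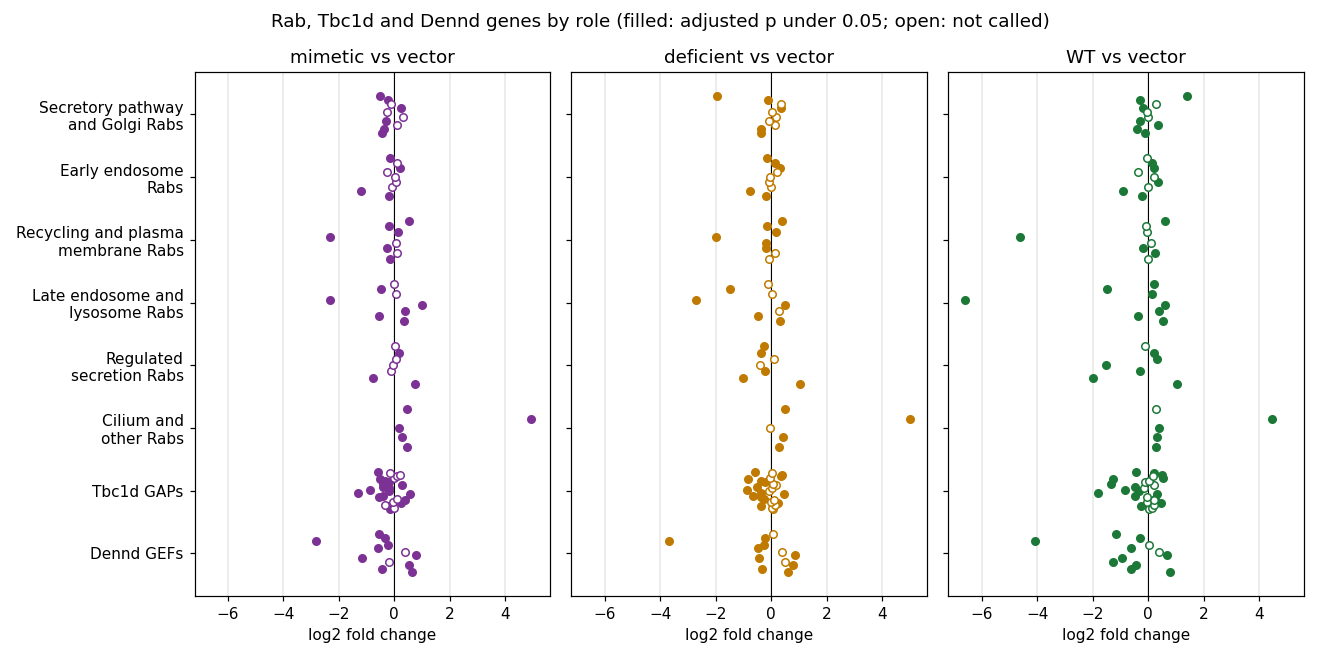
Log2 fold change against vector (horizontal axis) of the 85 tested genes, grouped by role down the page, for the mimetic, deficient and WT lines from left to right. Filled points have an adjusted p under 0.05 in edgeR's quasi-likelihood test; most points lie within 1 of zero, and Rab38, Rab17, Dennd5b and Rab39b lie farthest out.

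Grouped by role, Rabs of the secretory pathway and Golgi moved in both directions, while 28.4% to 31% of all tested genes were higher and 29.8% to 33.6% lower in the same comparisons. Of 10 tested, 1 rose and 5 fell in mimetic, 1 rose and 4 fell in deficient, and 2 rose and 5 fell in WT cells. Rab1a, which acts in traffic from the endoplasmic reticulum to the Golgi, stood at 145, 138 and 143 CPM in mimetic, 142, 152 and 140 in deficient, 140, 140 and 138 in WT and 185, 188 and 182 in vector libraries. All 9 Zeb1 libraries thus lay below the vector libraries. The log2 fold change was -0.38 in mimetic, -0.35 in deficient and -0.41 in WT cells (SE 0.04 each), with edgeR adjusted p of 1.39e-07, 4.04e-07 and 4.11e-08. Summed over the group, levels were 769.4 ± 6.33 CPM in mimetic, 818.3 ± 15.7 in deficient, 832.5 ± 2.4 in WT and 906.5 ± 9.64 in vector libraries (SD, n = 3 each).

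Early endosome Rabs moved in both directions, where 28.4% to 31% of all tested genes were higher and 29.8% to 33.6% lower. Of 9 tested, 1 rose and 3 fell in mimetic, 2 rose and 3 fell in deficient, and 3 rose and 2 fell in WT cells. Rab20, linked to the maturation of endosomes and phagosomes, was lower in each Zeb1 line. It stood at 2.67, 2.50 and 1.74 CPM in mimetic, 2.90, 2.98 and 3.31 in deficient, 3.09, 2.77 and 2.53 in WT and 5.38, 4.15 and 6.07 in vector libraries. All vector libraries were the highest, and the Zeb1 lines overlapped in part. Its log2 fold change was -1.18 (SE 0.19) in mimetic, -0.77 (0.18) in deficient and -0.90 (0.18) in WT cells, with edgeR adjusted p of 2.06e-05, 0.00107 and 0.00023. Rab31, which acts between the Golgi and endosomes, rose in WT cells, with 227 ± 8.6 CPM against 178 ± 3.6 in vector (log2 fold change 0.35, edgeR adjusted p = 1.69e-07). It was lower in mimetic (log2 fold change -0.28) and deficient cells (-0.42) than in WT cells, with edgeR adjusted p of 1.24e-05 and 2.78e-08.

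Among Rabs of recycling and of delivery to the plasma membrane, 2 rose and 4 fell in mimetic, 2 rose and 4 fell in deficient, and 2 rose and 2 fell in WT cells, of 8 tested. Shares of all tested genes were 28.4% to 31% higher and 29.8% to 33.6% lower in these comparisons. Rab17, a Rab of polarized epithelial cells that acts in apical recycling and transcytosis, lies on chromosome 1 from 90958133 to 90969661 (GRCm38, GENCODE M21). It stood at 1.32, 2.43 and 1.88 CPM in mimetic, 2.38, 2.24 and 2.50 in deficient, 0.347, 0.453 and 0.320 in WT and 8.47, 9.32 and 10.3 in vector libraries. WT libraries were lowest, the mimetic and deficient libraries lay between and overlapped each other, and vector libraries were highest. Against vector the log2 fold change was -2.32 (SE 0.18) in mimetic, -1.98 (0.17) in deficient and -4.62 (0.23) in WT cells, with edgeR adjusted p of 1.06e-09, 5.87e-09 and 4.92e-13. Against WT, Rab17 was higher by 2.30 (0.28) in mimetic and 2.64 (0.27) in deficient cells on the log2 scale, with edgeR adjusted p of 1.34e-06 and 5.78e-08. Rab8b, of post-Golgi traffic to the cell surface, rose by 0.55, 0.40 and 0.62 in mimetic, deficient and WT cells, with edgeR adjusted p of 2.1e-07, 1.21e-05 and 2.21e-08. Its levels were 62.3 ± 3.51 CPM in mimetic, 56.3 ± 4.72 in deficient, 65.7 ± 0.70 in WT and 42.6 ± 0.79 in vector libraries.

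Rabs of late endosomes, lysosomes and lysosome-related organelles included the gene with the largest fall of the family. Of 8 tested, 3 rose and 3 fell in mimetic, 2 rose and 3 fell in deficient, and 5 rose and 3 fell in WT cells. Among all tested genes 28.4% to 31% were higher and 29.8% to 33.6% lower in these comparisons. Rab38, which serves lysosome-related organelles such as melanosomes, lies on chromosome 7 from 88430273 to 88491572. It stood at 4.55, 4.18 and 4.75 CPM in mimetic, 3.98, 3.6 and 2.69 in deficient, 0.104, 0.311 and 0.249 in WT and 23.3, 23.7 and 20.9 in vector libraries. WT libraries were lowest, with 3 to 11 counts each, and vector libraries highest, with both other lines in between. Summed counts of Rab38 were 99.0-fold lower in WT than in vector (95% exact counting interval 64.6 to 160). The log2 fold change was -2.33 (SE 0.14) in mimetic and -2.72 (0.14) in deficient cells, with edgeR adjusted p of 7.77e-12 and 1.08e-12. Rab38 was 4.28 (0.26) higher in mimetic than in WT and 3.89 (0.26) higher in deficient than in WT on that scale, with edgeR adjusted p of 4.07e-11 and 1.18e-10. Between the mutant lines it was not called (0.39, SE 0.16, edgeR adjusted p = 0.0703).

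Rab7b and Rab32 of the same role group moved in different ways. Rab7b, which returns cargo from late endosomes to the Golgi, stood at 8.45, 7.95 and 10.1 CPM in mimetic, 3.89, 4.88 and 4.52 in deficient, 4.99, 4.21 and 3.85 in WT and 12.8, 12.4 and 11.7 in vector libraries. Deficient and WT libraries overlapped at the low end, mimetic libraries lay above both, and vector libraries were highest. In mimetic cells it was 1.02 (SE 0.14) above WT and 1.00 (0.13) above deficient cells on the log2 scale, with edgeR adjusted p of 3.65e-06 and 9.12e-06. Rab32, of melanosomes and mitochondria, averaged 8 ± 0.47 CPM in mimetic, 5.62 ± 0.97 in deficient, 6.16 ± 0.26 in WT and 3.99 ± 0.39 in vector libraries. Against vector it rose by 1.00 (SE 0.14) in mimetic, 0.49 (0.14) in deficient and 0.62 (0.14) in WT cells, with edgeR adjusted p of 3.02e-06, 0.00506 and 0.000593. Without deficient replicate 1 the deficient call was lost (edgeR adjusted p = 0.0543).

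Of 7 Rabs of regulated secretion tested, 2 rose and 1 fell in mimetic, 1 rose and 4 fell in deficient, and 3 rose and 3 fell in WT cells. Differences between these counts were not tested, and 28.4% to 31% of all tested genes were higher and 29.8% to 33.6% lower. Rab27a, which docks secretory lysosomes and exosome-forming endosomes at the plasma membrane, lies on chromosome 9 from 73044854 to 73097629. It stood at 16.8, 15.9 and 16.2 CPM in mimetic, 13.2, 13.4 and 14.3 in deficient, 6.69, 6.88 and 7.51 in WT and 26, 27.4 and 29.4 in vector libraries. The 4 lines did not overlap, with vector highest and WT lowest. The log2 fold change against vector was -0.76 (SE 0.08) in mimetic, -1.02 (0.08) in deficient and -1.98 (0.09) in WT cells, with edgeR adjusted p of 7.84e-08, 1.22e-09 and 5.17e-14. Rab26, which acts in secretory granule maturation, averaged 0.961 ± 0.09 CPM in mimetic, 1.18 ± 0.19 in deficient, 1.17 ± 0.08 in WT and 0.566 ± 0.14 in vector libraries. It overlaps Traf7 in the annotation, and counting strand is not stated in the sources used. Its rise passed the test in deficient cells (log2 fold change 1.05, edgeR adjusted p = 0.0061) and WT cells (1.03, 0.00609). In mimetic cells (0.75, SE 0.32, edgeR adjusted p = 0.0494) the call was lost with DESeq2 (adjusted p = 0.0595) and without any 1 of the 6 libraries except vector replicate 1, with edgeR adjusted p of 0.0567 to 0.182.

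The 5 tested Rabs of cilia and other routes had no falls: 5 rose in mimetic, 4 in deficient and 4 in WT cells. Of all tested genes, 28.4% to 31% were higher and 29.8% to 33.6% lower in these comparisons. The group is small and mixed, and was drawn up with earlier results of these data known. Rab39b, known for its role in neurons, had 5 counts in all over the 3 vector libraries, against 125 in mimetic, 161 in deficient and 107 in WT libraries. Its summed counts were 32.3-fold higher in mimetic (95% exact counting interval 13.5 to 101), 34.5-fold in deficient (14.5 to 108) and 24-fold in WT cells (9.97 to 75.4). Rab34, which acts in lysosome positioning and cilium formation, averaged 63.2 ± 3.79 CPM in mimetic, 53.8 ± 1.68 in deficient, 73.9 ± 2.65 in WT and 55.7 ± 1.73 in vector libraries. It rose in WT (log2 fold change 0.41, edgeR adjusted p = 1.89e-06) and mimetic cells (0.18, 0.0083), where the call was lost without mimetic replicate 1 (edgeR adjusted p = 0.058). Rab23, a regulator of Hedgehog signalling, and Rab28 also rose in each Zeb1 line, by 0.27 to 0.45 on the log2 scale.

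**Figure D2:**
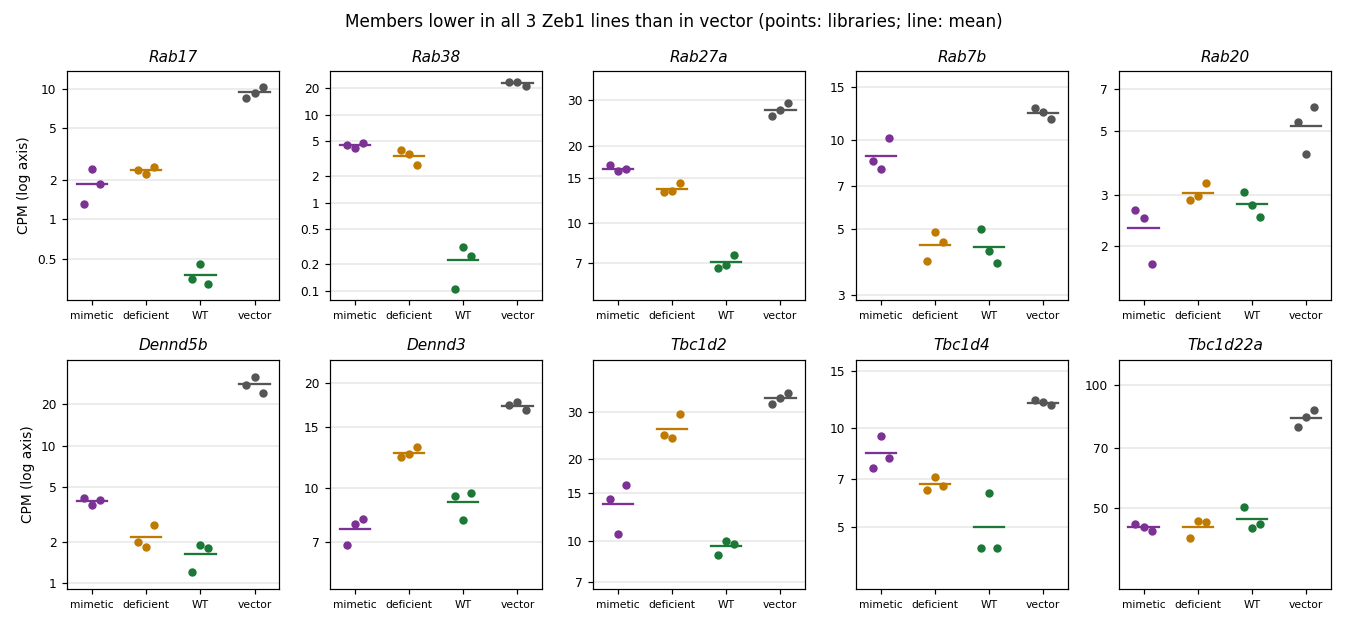
CPM (logarithmic axis, one scale per panel) of 10 genes that were lower in each of the 3 Zeb1 lines than in vector, with 1 point per library and a line at the mean. Vector libraries are highest in every panel, and the 3 WT libraries are lowest in panels that include Rab38, Rab17, Rab27a and Tbc1d2.

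Of 26 Tbc1d genes tested, 4 rose and 14 fell in mimetic, 4 rose and 11 fell in deficient, and 6 rose and 9 fell in WT cells. The shares lower were 53.8% in mimetic, 42.3% in deficient and 34.6% in WT cells, against 30.9%, 29.8% and 33.6% of all tested genes. Tbc1d2 (Armus), a GAP for Rab7 in human cells that takes part in E-cadherin degradation, stood at 14.2, 10.6 and 16.1 CPM in mimetic, 24.6, 23.9 and 29.3 in deficient, 8.84, 9.99 and 9.72 in WT and 31.9, 33.8 and 35.2 in vector libraries. The lines did not overlap, in the order WT, mimetic, deficient and vector. The log2 fold change was -1.30 (SE 0.11) in mimetic, -0.37 (0.11) in deficient and -1.82 (0.12) in WT cells, with edgeR adjusted p of 4.32e-09, 0.00501 and 2.58e-11. In deficient cells Tbc1d2 was 2.72-fold as high as in WT cells (log2 fold change 1.44, SE 0.12, edgeR adjusted p = 2.32e-09).

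Tbc1d25, Tbc1d4 and Tbc1d22a showed other patterns. Tbc1d25, a GAP for Rab33b in autophagy, stood at 10.1, 11.7 and 11.8 CPM in mimetic, 14.1, 14.8 and 17.6 in deficient, 4.96, 6.20 and 6.23 in WT and 15.2, 14.3 and 15 in vector libraries. Deficient and vector libraries overlapped, mimetic libraries were lower and WT libraries lowest. It fell in mimetic (-0.41, edgeR adjusted p = 0.0028) and WT cells (-1.35, 1.97e-09), and was not called in deficient cells (0.06, SE 0.10, 0.651). Tbc1d4 (AS160), the insulin-regulated GAP of glucose transporter traffic, fell by 0.52, 0.83 and 1.25 on the log2 scale in mimetic, deficient and WT cells (edgeR adjusted p of 0.00204, 1.82e-05 and 8.99e-08). Tbc1d22a averaged 44.9 ± 0.97 CPM in mimetic, 45.1 ± 2.38 in deficient, 47 ± 2.86 in WT and 83.1 ± 3.96 in vector libraries. It fell by 0.89, 0.88 and 0.82 on the log2 scale in mimetic, deficient and WT cells (SE 0.06 each; edgeR adjusted p of 8.9e-11, 1.04e-10 and 1.83e-10).

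Of 12 Dennd GEFs tested, 3 rose and 7 fell in mimetic, 3 rose and 6 fell in deficient, and 2 rose and 8 fell in WT cells. The shares lower were 58.3% in mimetic, 50% in deficient and 66.7% in WT cells, against the same shares of all tested genes. Dennd5b, reported as a GEF for Rab39 in human biochemical work, lies on chromosome 6 from 148988071 to 149101680. It stood at 4.19, 3.7 and 4 CPM in mimetic, 1.99, 1.83 and 2.66 in deficient, 1.21, 1.90 and 1.82 in WT and 27.6, 31.8 and 24.1 in vector libraries. Vector libraries were the highest, and deficient and WT libraries overlapped. The log2 fold change was -2.81 (SE 0.14) in mimetic, -3.69 (0.15) in deficient and -4.07 (0.16) in WT cells, with edgeR adjusted p of 8.87e-13, 4.27e-14 and 8.09e-15.

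Dennd3, a GEF for Rab12, averaged 7.60 ± 0.69 CPM in mimetic, 12.6 ± 0.47 in deficient, 9.09 ± 0.87 in WT and 17.2 ± 0.43 in vector libraries. It fell by 1.18, 0.45 and 0.93 on the log2 scale in mimetic, deficient and WT cells (edgeR adjusted p of 3.01e-09, 0.000375 and 5.18e-08). Rab12 itself rose in the same lines by 0.34, 0.33 and 0.55 (edgeR adjusted p of 1.29e-05, 1.52e-05 and 1.14e-08). Dennd6b, a relative of the Rab14 GEF Dennd6a, averaged 6.47 ± 0.15 CPM in mimetic, 9.81 ± 0.30 in deficient, 4.19 ± 0.35 in WT and 9.38 ± 0.14 in vector libraries. It fell in mimetic (-0.53, edgeR adjusted p = 0.000225) and WT cells (-1.17, 1.2e-08), and was not called in deficient cells (0.07, 0.601). Dennd2d, one of the Dennd2 proteins that act on Rab9 in human cells, was low throughout, at 2.01 ± 0.39 CPM in mimetic, 3.22 ± 0.54 in deficient, 0.957 ± 0.40 in WT and 2.31 ± 0.34 in vector libraries. It fell in WT cells (-1.27, SE 0.28, edgeR adjusted p = 0.000422), was not called in mimetic (-0.20) or deficient cells (0.48), and overlaps Cept1 in the annotation. It was 1.07 higher in mimetic than in WT and 1.75 higher in deficient than in WT (edgeR adjusted p of 0.00435 and 1.57e-05).

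Paralogous GEFs for the same Rab moved in opposite directions in some cases, a pattern picked after the values were seen. Dennd1a, a GEF for Rab35, averaged 11.5 ± 0.53 CPM in mimetic, 11.4 ± 1.63 in deficient, 12.8 ± 0.99 in WT and 7.42 ± 0.46 in vector libraries. It rose by 0.63, 0.62 and 0.79 on the log2 scale in mimetic, deficient and WT cells (edgeR adjusted p of 7.16e-05, 8.25e-05 and 2.86e-06). Dennd1b, also a GEF for Rab35, fell by 0.45, 0.33 and 0.63 (3.96e-06, 0.000152 and 2.74e-08 by edgeR). Of the Rab10 GEFs, Dennd4a rose by 0.77, 0.85 and 0.69 in mimetic, deficient and WT cells, while Dennd4c fell by 0.58, 0.46 and 0.62, each passing the test. Summed over the 13 Dennd genes, levels were 374.8 ± 7.97 CPM in mimetic, 400.2 ± 6.91 in deficient, 379.0 ± 5.08 in WT and 475.1 ± 27.4 in vector libraries.

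**Figure D3:**
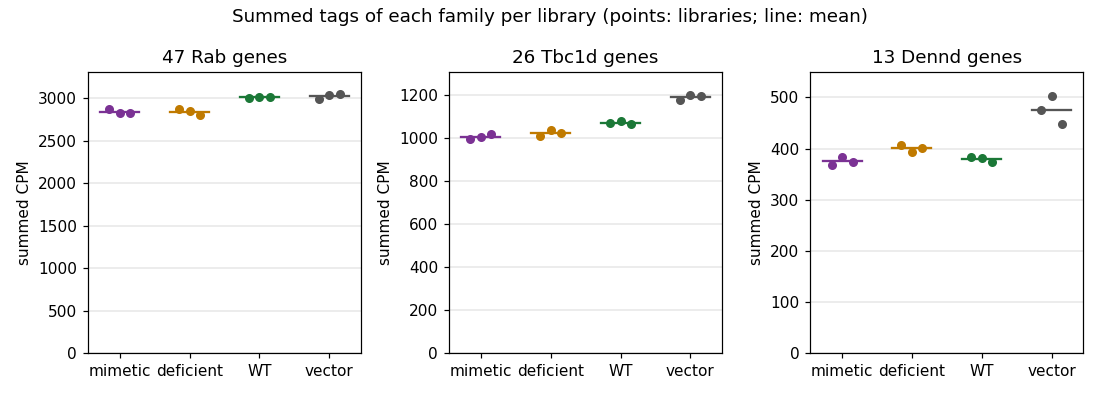
Summed CPM of the 47 Rab, 26 Tbc1d and 13 Dennd genes in each library, with a line at the mean of each line. The vector libraries are highest for Tbc1d and Dennd genes. The Rab sums differ less in proportion, at 2846 ± 22.0 in mimetic, 2843 ± 33.6 in deficient, 3013 ± 11.5 in WT and 3027 ± 32.9 in vector libraries (SD, n = 3 each). Every mimetic and deficient library (2806 to 2871) lies below every WT and vector library (2991 to 3055) with TMM scaling. The TMM factors were 1.026 to 1.03 in mimetic and 0.9702 to 0.9833 in vector libraries. This small gap can therefore depend on the scaling, and sums by library size alone are not shown.

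Of the Rab, Tbc1d and Dennd genes at least 2-fold lower in WT than in vector, 8 have a RefSeq promoter sequence (250 bases before to 50 after a start site, GRCm38.p6), and 5 of these 8 hold the E-box letters CACCTG or its reverse complement CAGGTG, which Zeb1 is known to bind. The search covered both strands, and this subset was chosen after the values were seen. The letters occurred in 36.6% of the 628 tested genes with a promoter that were at least 2-fold lower in WT, and in 20.9% of all 9241 tested genes with one. Among the other tested Rab, Tbc1d and Dennd genes they occurred in 9 of 61 (14.8%), and over all 70 family genes with a promoter in 14 (20%). Of the 32851 promoters in the table, 20.2% hold them. Of the family genes at least 2-fold lower than vector, the letters occurred in 1 of 4 with a promoter in mimetic and 2 of 4 in deficient cells, and of those lower in each of the 3 Zeb1 lines in 3 of 18 (16.7%). A match is a description of the letters in this window and not a binding site shown by these data. The 5 promoters are printed so that the letters can be seen in place, in capitals, on the strand of each gene. Rab17 is chr1:90967618-90967917 on the minus strand, Rab27a chr9:73044560-73044859 on the plus strand, Tbc1d25 chrX:8175875-8176174 on the minus strand, Dennd2d chr3:106482200-106482499 on the plus strand and Dennd6b chr15:89196425-89196724 on the minus strand. Counted from the start site, the letters begin at -234 in Rab17, -50 in Rab27a, -51 in Tbc1d25, 39 in Dennd2d and 24 in Dennd6b. Rab27a and Dennd2d have other promoters in the table without these letters. The Rab17 window lies wholly inside the gene as placed above from GENCODE M21. Of the genes at least 2-fold lower in WT, Dennd5b, Tbc1d2 and Tbc1d4 have a promoter without the letters, and Rab38 has no promoter sequence here.
Rab17: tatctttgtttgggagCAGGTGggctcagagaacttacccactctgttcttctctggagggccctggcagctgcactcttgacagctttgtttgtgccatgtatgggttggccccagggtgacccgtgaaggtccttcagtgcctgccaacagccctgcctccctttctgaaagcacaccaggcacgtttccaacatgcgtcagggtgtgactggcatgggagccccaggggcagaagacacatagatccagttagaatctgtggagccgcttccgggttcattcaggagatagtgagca
Rab27a: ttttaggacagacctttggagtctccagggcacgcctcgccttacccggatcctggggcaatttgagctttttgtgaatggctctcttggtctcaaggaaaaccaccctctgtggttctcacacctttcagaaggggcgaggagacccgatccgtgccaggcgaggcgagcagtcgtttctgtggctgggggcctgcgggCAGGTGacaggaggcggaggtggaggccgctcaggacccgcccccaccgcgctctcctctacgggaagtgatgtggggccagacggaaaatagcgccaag
Tbc1d25: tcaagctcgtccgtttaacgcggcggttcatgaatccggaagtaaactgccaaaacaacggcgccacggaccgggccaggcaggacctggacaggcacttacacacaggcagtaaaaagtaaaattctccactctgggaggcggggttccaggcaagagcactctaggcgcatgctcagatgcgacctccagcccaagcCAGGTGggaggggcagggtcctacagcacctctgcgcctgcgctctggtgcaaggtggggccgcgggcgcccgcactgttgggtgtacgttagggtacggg
Dennd2d: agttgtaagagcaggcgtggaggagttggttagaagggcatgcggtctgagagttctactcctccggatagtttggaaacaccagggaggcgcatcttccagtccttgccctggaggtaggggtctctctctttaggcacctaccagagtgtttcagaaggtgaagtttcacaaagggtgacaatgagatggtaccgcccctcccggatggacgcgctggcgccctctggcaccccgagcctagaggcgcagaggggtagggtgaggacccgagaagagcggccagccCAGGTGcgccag
Dennd6b: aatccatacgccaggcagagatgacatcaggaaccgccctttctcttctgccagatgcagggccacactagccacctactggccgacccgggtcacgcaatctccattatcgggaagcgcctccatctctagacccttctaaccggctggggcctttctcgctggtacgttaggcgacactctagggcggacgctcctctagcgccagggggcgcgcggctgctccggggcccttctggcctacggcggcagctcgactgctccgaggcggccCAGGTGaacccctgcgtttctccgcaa

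The mutant forms were also compared with WT Zeb1, and both comparisons share the WT libraries. In mimetic against WT 19 rose and 16 fell, or 41.2% against 44.9% of all tested genes (23.1% higher and 21.8% lower). In deficient against WT 18 rose and 19 fell, or 43.5% against 53.8% (27.5% higher and 26.3% lower), and without deficient replicate 3 these counts were 19 and 21. Larger differences were mostly upward, as they were among all tested genes. In mimetic against WT 7 genes rose and 1 fell at least 2-fold (8.24% and 1.18%, against 4.79% and 0.823% of all tested genes). In deficient against WT 8 rose and 1 fell (9.41% and 1.18%, against 7.28% and 1.5% of all tested genes). The 7 in mimetic were Rab38, Rab17, Dennd2d, Rab37, Rab27a, Rab7b and Dennd5b. The 8 in deficient were Rab38, Rab17, Dennd2d, Rab37, Tbc1d2, Tbc1d25, Dennd2c and Dennd6b. The gene that fell was Rab6b in each comparison. Rab37, named here after its values were seen, was at most 1.12 CPM in any library.

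Between mimetic and deficient, 13 genes were higher in mimetic and 8 lower, or 24.7% against 27.4% of all tested genes (12.6% higher and 14.9% lower). Without deficient replicate 3 these counts were 11 and 10. Of the Rabs alone, 9 of 47 were higher in mimetic and 1 was lower. Rab6b was the only gene of the family with a difference of at least 2-fold. Dennd3 and Tbc1d2 were lower in mimetic than in deficient cells by 0.73 and 0.93 on the log2 scale, with edgeR adjusted p of 1.59e-05 and 3.31e-06.

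Opposite directions against vector were called for 5 genes. Rab6b, a Golgi Rab known mainly from neurons, lies on chromosome 9 from 103111787 to 103185276. It stood at 10.0, 10.6 and 10.6 CPM in mimetic, 4.67, 2.76 and 4.08 in deficient, 41.1, 40.1 and 38.4 in WT and 16.4, 15.7 and 13 in vector libraries. No lines overlapped, and the WT line was above vector while both mutant lines were below it. Against vector the log2 fold change was -0.53 (SE 0.12) in mimetic, -1.97 (0.13) in deficient and 1.41 (0.11) in WT cells, with edgeR adjusted p of 0.000721, 1e-10 and 6.06e-10. Mimetic cells were 1.94 (0.12) and deficient cells 3.37 (0.13) lower than WT cells on the log2 scale, with edgeR adjusted p of 4.41e-11 and 1.55e-14. Its near paralog Rab6a fell in each Zeb1 line, by 0.23, 0.12 and 0.31 in mimetic, deficient and WT cells, and overlaps Mrpl48 in the annotation. These 2 genes are similar in sequence, and how the authors treated reads shared between them is not stated in the sources used.

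The other 4 genes moved less. Rab3b, a Rab of regulated exocytosis, stood at 81.3, 84.2 and 87.7 CPM in mimetic, 58.6, 56.7 and 59.96 in deficient, 88.1, 83.7 and 90.3 in WT and 76.2, 75.1 and 75.3 in vector libraries. Deficient libraries were lowest and the mimetic and WT libraries overlapped above vector. Its log2 fold change was 0.16 in mimetic, -0.37 in deficient and 0.21 in WT cells (SE 0.05 each), with edgeR adjusted p of 0.00759, 1.89e-06 and 0.000762. Dennd2c, another Dennd2 GEF, stood at 9.69, 12.7 and 9.17 CPM in mimetic, 12.9, 13.7 and 11.6 in deficient, 5.41, 5.12 and 5.66 in WT and 7.71, 7.23 and 7.1 in vector libraries. Both mutant lines lay above vector and the WT line below it, without overlap. It rose in mimetic (0.52, edgeR adjusted p = 0.00112) and deficient (0.79, 9.76e-06) and fell in WT cells (-0.45, 0.00489). Rab33b, a Golgi Rab that binds the autophagy protein Atg16l1, stood at 20.9, 24.7 and 21.6 CPM in mimetic, 25.3, 24.8 and 21.8 in deficient, 16.3, 17.1 and 16.2 in WT and 19.3, 18.3 and 19.2 in vector libraries. Again the WT libraries were lowest and the mutant libraries highest, without overlap with vector. It rose in mimetic (0.24, edgeR adjusted p = 0.0158) and deficient (0.34, 0.00138) and fell in WT cells (-0.20, 0.0468). The WT call of Rab33b was lost with DESeq2 (adjusted p = 0.0686) and without any 1 of the 6 libraries (edgeR adjusted p of 0.0521 to 0.123). Rab33b also lost this call in edgeR with RLE scaling (adjusted p = 0.0639), with library size alone (0.0685) and with no filter (0.0517). Its mimetic call was lost without mimetic replicate 2 (edgeR adjusted p = 0.115) or vector replicate 2 (0.0541).

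Tbc1d15, a GAP for Rab7, stood at 39.8, 39.98 and 37.4 CPM in mimetic, 34.0, 33.9 and 23.6 in deficient, 44.2, 46.0 and 40.05 in WT and 32.8, 39.5 and 36.7 in vector libraries. Deficient and vector libraries overlapped, and deficient replicate 3 stood apart. It fell in deficient (-0.25, SE 0.10, edgeR adjusted p = 0.0462) and rose in WT cells (0.26, 0.10, 0.0331). Without deficient replicate 3 the deficient value was -0.10 (edgeR adjusted p = 0.324), and the call was also lost without vector replicate 2 (0.168) or vector replicate 3 (0.0727). The deficient call was lost too in edgeR with library size alone (adjusted p = 0.102), a stricter filter (0.0715) and a fit of only these 2 lines (0.0884). The WT call was lost without WT replicate 1 (edgeR adjusted p = 0.0748), WT replicate 2 (0.117) or vector replicate 1 (0.159).

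**Figure D4:**
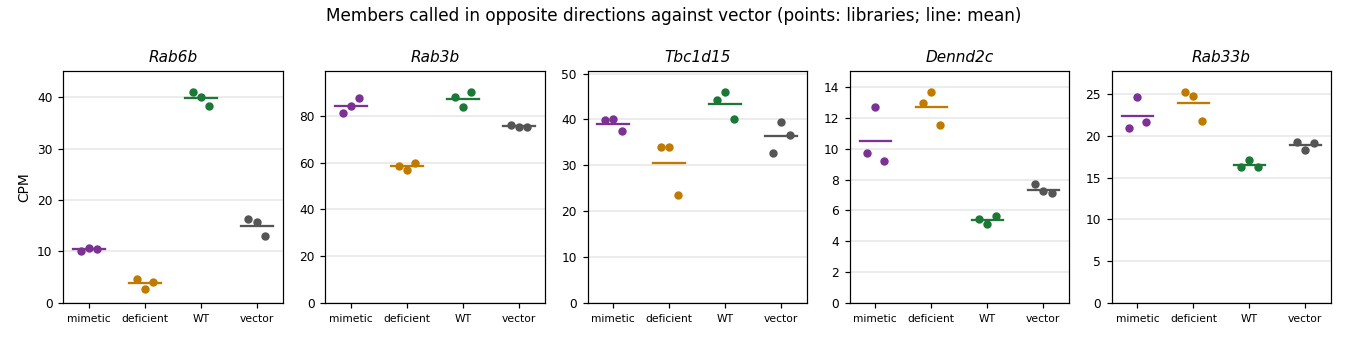
CPM per library of the 5 genes called in opposite directions against vector in at least 1 pair of Zeb1 lines, with a line at the mean of each line. Rab6b shows the widest spread of levels, from 3.84 ± 0.98 CPM in deficient to 39.9 ± 1.38 in WT libraries.

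In the 4-line test 14 genes were not called: Rab2b, Rab3a, Rab4a, Rab4b, Rab21, Rab29, Rab30, Rab43, Dennd4b, Tbc1d10a, Tbc1d10c, Tbc1d13, Tbc1d14 and Tbc1d24. Their adjusted p in edgeR's test ran from 0.0507 for Tbc1d14 to 0.874 for Tbc1d13, and missing the threshold does not show that they were alike. Rab29, Rab3a, Tbc1d14 and Tbc1d24 were each called in at least 1 pair of lines.

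Partners of the family were summarised from lists of Rab prenylation, other GAPs, other GEFs, effectors and the exocyst. Of the 104 tested, 15 rose and 52 fell in mimetic, 22 rose and 41 fell in deficient, and 32 rose and 47 fell in WT cells against vector. Of all tested genes, 28.6% were higher and 30.9% lower in mimetic, 28.4% and 29.8% in deficient, and 31% and 33.6% in WT cells. With library size alone as the scaling, 23 partner genes rose and 46 fell in mimetic cells, while 4334 of all tested genes rose and 3004 fell. TBC-domain GAPs with other names had no rises, with 8, 6 and 9 of 11 lower in mimetic, deficient and WT cells. Rab3gap2, a Rab3 GAP subunit, fell by 0.71, 0.74 and 0.76 in those lines on the log2 scale (edgeR adjusted p of 7.5e-10, 3.82e-10 and 1.71e-10). In Rab prenylation, Chml, the escort protein REP2, fell by 0.91, 0.63 and 1.18, and Rabggtb, the beta subunit of the transferase, fell by 0.24, 0.16 and 0.40. Of the other GEFs, 6 rose and 14 fell in mimetic, 10 rose and 12 fell in deficient, and 13 rose and 13 fell in WT cells, of 36 tested. Rin2, a Rab5 GEF, fell by 1.1, 1.13 and 1.26 (edgeR adjusted p of 1.86e-13, 1.5e-13 and 1.36e-14).

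Among the effectors, Myo5c and Mical1 differed most. Myo5c, a myosin V of epithelial secretory cells, stood at 102, 104 and 106 CPM in mimetic, 126, 122 and 124 in deficient, 54.9, 58.7 and 54.7 in WT and 316, 308 and 290 in vector libraries. The 4 lines did not overlap, with WT lowest and vector highest. Its log2 fold change was -1.54, -1.29 and -2.44 in mimetic, deficient and WT cells, with edgeR adjusted p of 1.54e-16, 2.09e-15 and 8.77e-20. Mical1, which binds Rabs and oxidises actin, stood at 9.97, 8.51 and 12.7 CPM in mimetic, 9.92, 11.8 and 11.7 in deficient, 16.2, 14.8 and 14.7 in WT and 0.544, 0.246 and 0.475 in vector libraries. Its log2 fold change was 4.60 (SE 0.21), 4.70 (0.21) and 5.15 (0.20) in those lines, with edgeR adjusted p of 1.86e-13, 1.43e-13 and 1.01e-14. Unc13d (Munc13-4), a Rab27 effector in granule priming, averaged 50.6 ± 3.04 CPM in mimetic, 93.8 ± 5.97 in deficient, 41.3 ± 2.96 in WT and 71.9 ± 4.27 in vector libraries. It fell in mimetic (-0.51, edgeR adjusted p = 1.35e-06) and WT (-0.80, 1.58e-09) and rose in deficient cells (0.38, 3.45e-05). Of the 9 exocyst subunits, the complex that tethers secretory vesicles, 1 rose and 7 fell in mimetic, 1 rose and 6 fell in deficient, and 5 rose and 3 fell in WT cells. The shares of all tested genes were 28.6% higher and 30.9% lower in mimetic, 28.4% and 29.8% in deficient, and 31% and 33.6% in WT. Exoc2 fell in mimetic (-0.16) and deficient (-0.24) and rose in WT cells (0.32), with edgeR adjusted p of 0.013, 0.000368 and 1.24e-05.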

How the data were processed

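RNA of 12 libraries was measured by QuantSeq 3′ tag sequencing, forward kit, per the labels' protocols. The authors deposited a table of unnormalised counts, with a row per gene and a column per library. The submitters' processing notes name STAR and mm10; no source used here gives the counting tool, its strand setting or the annotation. A 3′ tag count stands for transcripts, so levels are not per length, and genes are not ranked against each other by level. Of 12208 listed genes, 12027 passed edgeR's filterByExpr and 181 were removed; library totals were 24.4 to 39 M counts.

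The tests used edgeR 4.0.16 (R 4.3.3, limma 3.58.1), with TMM factors and a quasi-likelihood fit of 1 mean per line to the 12 libraries. The 6 pairs of lines and a joint test of the 4 lines were adjusted by Benjamini-Hochberg over 12027 genes, two-sided, at 0.05. CPM are counts per M of TMM-scaled library size, as mean ± SD, n = 3. The SE is the size of the log2 fold change divided by the square root of F. The scripts were tested on simulated counts. DESeq2 1.42.0, other scalings, filters, a replicate block and leaving out libraries were tried as alternatives. Counting intervals cover counting error only. Pairs of replicates had a mean chi-square of 2.96 to 23.6 per gene, above sampling noise and largest for pairs with deficient or vector replicate 3, and none was counted as a copy.

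Named genes were those at least 2-fold changed in a pair of lines with 1 CPM or more in the highest line, the 2 strongest per role group in the joint test, those with opposite directions, those not called, and up to 3 per partner list. Exceptions are stated. Members, lists and rules were chosen with earlier results of these data known. Gene coordinates are from GENCODE M21, where 86 of 86 members matched by ID and symbol, and promoter sequences are from RefSeq (GRCm38.p6), which had 70 of the 86.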

Additional observations from a re-analysis of the deposited data

Results flagged for a closer look

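In 5 genes the Zeb1 lines were called in opposite directions against vector, and the lines were then compared directly by edgeR's quasi-likelihood test. Genes were picked by those opposite calls, and only pairs whose direct comparison was also called are listed. These p-values come from the same libraries and are no separate evidence. The Rab33b call in WT against vector held in 3 of 13 alternative fits, and the Tbc1d15 call in deficient against vector in 7 of 13. Rab6b was lower in mimetic than in WT cells (log2 fold change -1.94, adjusted p = 4.41e-11) and lower in deficient than in WT cells (-3.37, 1.55e-14). Rab3b was lower in deficient than in WT cells (-0.58, edgeR adjusted p = 4.23e-09) and higher in mimetic than in deficient cells (0.531, 6.04e-08). Dennd2c was higher in mimetic than in WT cells (0.965, edgeR adjusted p = 4.08e-06) and in deficient than in WT cells (1.24, 5.87e-08). Rab33b was higher in mimetic than in WT cells (0.439, edgeR adjusted p = 0.00026) and in deficient than in WT cells (0.533, 1.87e-05). Tbc1d15 was lower in deficient than in WT cells (-0.508, edgeR adjusted p = 0.000355), with deficient replicate 3 the lowest of its line.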

How the results depend on the processing

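Counts of Rab, Tbc1d and Dennd genes called, and of all partner lists together, were within 1.5 times of the values given under DESeq2, other scalings, other filters, fits restricted to a pair of lines, a replicate block and leaving out each library, with 2 exceptions. Partner genes higher in mimetic than in vector numbered 23 with library size alone, against 15. Partner genes higher in mimetic than in deficient numbered 10, and 6 to 8 when a library was left out, with 6 without mimetic replicate 2. Leaving out 1 library in turn gave 1404 repeat fits over 234 comparisons of 39 named genes: 1333 kept the call or its absence, 56 lost the call (in 17 comparisons), 15 gained one (in 13), and none reversed a called direction. Calls that were lost with some library left out include Rab27a and Dennd2d in mimetic against deficient, Rab32 in mimetic against WT and Tbc1d4 in deficient against WT. Replicate numbers showed no clear pairing of the samples, though 3 libraries per line cannot exclude it. Same-numbered libraries had correlations of -0.0847 to 0.132 between their deviations, against -0.0931 to 0.0929 for different numbers. Only 1 pair passed 0.1, mimetic replicate 3 with deficient replicate 3. With a replicate block, 21 members rose and 36 fell in mimetic against vector, 20 and 36 in deficient and 27 and 32 in WT. Genes at a few counts, such as Rab39b in vector and Rab38 in WT, are limited by depth.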
